A study of Mus musculus with 40 samples.

Results

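The 58 genes described here encode transcription factors of development that lie outside the Hox clusters: 6 Pax, 8 Lhx, 4 Nkx, 6 Dlx, 8 Tbx, 5 Gata, 5 Neurod and Neurog, 2 Sim, 4 Fox, 2 Otx, 2 Sox and 2 En genes, with Six2, Six3, Wt1 and Tcf21. They were taken from a list of names, whatever their values, out of 21951 protein-coding genes of the GENCODE M21 basic annotation on GRCm38. Each gene was sorted by whether a peak reached within 2000 bp of any of its start sites. The members had 105 start sites, and their windows covered 301 kb, or 0.0111% of the chromosomes.

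Histone marks were mapped by ChIP-seq, which sequences the DNA bound to an antibody's target, in brown adipose tissue that the labels call iBAT, of wild type C57BL/6N mice aged 20 weeks. All mice ate chow until 8 weeks of age, and then either stayed on a normal chow diet (NCD) or were put on a high-fat diet (HFD) for 12 weeks. Cold mice were kept at 4 °C for 24 h, and warm mice were not. Mice 1 and 2 were warm on NCD, mice 4 and 5 cold on NCD, mice 7 and 8 warm on HFD, and mice 10 and 11 cold on HFD. Each mouse gave a peak list for H3K4me3, H3K27ac, H3K4me1 and H3K27me3, which makes 32 lists. The methods state that each sequencing experiment used brown fat of 2 mice, without saying whether a library was a pool of both, so that a mouse number may stand for a pool. The tissue is a mixture of cells, and a mark on few cells cannot be told apart from a weak mark on many.

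Transcription factors of these families are switched on in the embryo in narrow groups of cells, where they set the fate of neurons, muscle, heart, limb, kidney or gut. In cells of other fates, Polycomb repressive complex 2 (PRC2) places H3K27me3 across their starts and keeps them silent. H3K4me3 marks promoters that are active or poised, H3K27ac marks promoters and enhancers in use, and H3K4me1 marks enhancers. Start sites that carry H3K27me3 and H3K4me3 together are called bivalent, a state known from stem cells. In mice, PRC2 is recruited to dense runs of unmethylated CpG dinucleotides, which is why the promoter sequences of a few members are shown first.

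The sequences below are the 300 bases from 250 before to 50 after a start, read 5′ to 3′ along the gene, from RefSeq on GRCm38.p6. Each CpG is in capitals, and since CG reads the same on both strands, 1 strand shows all of them. Of the 58 members, 42 were matched in the promoter table. The other 16 were En2, Dlx4, Tbx5, Wt1, Otx1, Tbx15, Tbx3, Dlx5, Lhx5, Sim2, Dlx6, Tbx2, Gata6, Gata4, Dlx3 and Foxc2. With fewer than 80% matched, a comparison of promoter CpG content between classes of members is void and is not given. Lhx8 (chr3:154330511-154330810, minus strand) and both promoters of Gata2 (chr6:88193641-88193940 and chr6:88198414-88198713, plus strand) are shown because these genes were active. Lhx1 (chr11:84525485-84525784, minus strand) stands for the members with both H3K27me3 and H3K4me3, and Lhx3 (chr2:26206526-26206825, minus strand) for those with H3K27me3 alone. Sox1 (chr8:12395269-12395568, plus strand) and Neurog3 (chr10:62132840-62133139, plus strand) had no peak of any mark.
Lhx8: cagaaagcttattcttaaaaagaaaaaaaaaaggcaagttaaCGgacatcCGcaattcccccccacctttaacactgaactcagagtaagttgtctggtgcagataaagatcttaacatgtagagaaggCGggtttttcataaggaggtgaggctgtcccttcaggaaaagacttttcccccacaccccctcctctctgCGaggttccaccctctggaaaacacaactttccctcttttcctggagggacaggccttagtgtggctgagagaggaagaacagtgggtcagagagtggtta
Gata2 upstream promoter: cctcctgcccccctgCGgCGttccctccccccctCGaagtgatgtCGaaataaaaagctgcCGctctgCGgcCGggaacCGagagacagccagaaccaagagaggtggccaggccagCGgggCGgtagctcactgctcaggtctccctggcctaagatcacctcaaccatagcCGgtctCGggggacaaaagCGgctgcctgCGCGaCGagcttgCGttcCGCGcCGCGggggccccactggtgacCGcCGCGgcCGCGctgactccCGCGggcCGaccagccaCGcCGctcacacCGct
Gata2 downstream promoter: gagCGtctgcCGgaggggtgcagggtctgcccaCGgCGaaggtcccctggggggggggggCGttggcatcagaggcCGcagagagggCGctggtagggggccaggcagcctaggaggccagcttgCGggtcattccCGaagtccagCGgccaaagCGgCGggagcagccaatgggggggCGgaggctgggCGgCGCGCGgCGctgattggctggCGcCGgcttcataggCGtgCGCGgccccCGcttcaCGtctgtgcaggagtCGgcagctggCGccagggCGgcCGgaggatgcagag
Lhx1: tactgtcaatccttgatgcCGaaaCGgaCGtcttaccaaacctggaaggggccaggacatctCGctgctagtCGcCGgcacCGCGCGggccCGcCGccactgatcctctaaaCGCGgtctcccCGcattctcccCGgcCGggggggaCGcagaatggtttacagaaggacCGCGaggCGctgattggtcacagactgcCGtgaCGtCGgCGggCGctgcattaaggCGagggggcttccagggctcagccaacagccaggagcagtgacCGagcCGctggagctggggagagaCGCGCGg
Lhx3: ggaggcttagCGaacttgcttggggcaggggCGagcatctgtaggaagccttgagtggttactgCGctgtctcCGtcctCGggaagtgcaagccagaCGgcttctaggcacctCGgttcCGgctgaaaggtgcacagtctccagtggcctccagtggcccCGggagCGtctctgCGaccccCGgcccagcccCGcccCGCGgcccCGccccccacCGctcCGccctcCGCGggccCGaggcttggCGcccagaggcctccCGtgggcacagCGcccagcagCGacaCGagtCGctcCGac
Sox1: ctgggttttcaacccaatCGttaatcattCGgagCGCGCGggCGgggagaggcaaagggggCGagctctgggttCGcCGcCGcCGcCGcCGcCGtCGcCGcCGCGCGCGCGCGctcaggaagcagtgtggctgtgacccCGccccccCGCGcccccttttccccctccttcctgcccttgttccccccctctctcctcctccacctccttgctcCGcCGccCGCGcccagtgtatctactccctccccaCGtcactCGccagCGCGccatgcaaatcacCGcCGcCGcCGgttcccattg
Neurog3: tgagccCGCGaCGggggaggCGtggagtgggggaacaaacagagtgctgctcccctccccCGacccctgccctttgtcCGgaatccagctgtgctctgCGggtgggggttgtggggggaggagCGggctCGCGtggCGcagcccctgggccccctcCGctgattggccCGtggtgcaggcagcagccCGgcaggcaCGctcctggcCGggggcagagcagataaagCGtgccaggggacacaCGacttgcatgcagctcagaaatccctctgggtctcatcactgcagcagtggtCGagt

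Lhx8, an active gene, had the fewest CpGs of the 7 sequences, 4 in 300 bases, and 68.6% of the 32851 promoters in the table held at least as many. The upstream promoter of Gata2 held 32 (9.52% of promoters held at least as many) and the downstream promoter 29 (12.9%). Lhx1 held 31 (10.6%) and Lhx3 28 (14.2%). Sox1 held the most, 37 (5.58%), and Neurog3 held 19 (28.1%). The median was 7 over the promoters in the table outside chromosome 18, which was left out of the median alone. These 7 were picked as examples, and nothing about the classes is read from them.

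H3K27me3 reached the starts of 53 of the 58 members (91.4%) in at least 1 mouse, against 8.02% of all protein-coding genes. H3K4me3 was present at 45 members (77.6%), against 65.7% of all genes. H3K27ac was rare: 5 members (8.62%) had it in any mouse, against 50.6% of all genes. H3K4me1 reached 8 members (13.8%), against 31.3%. Here and below, counts over the members are descriptions and were given no test of their own.

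H3K27me3 and H3K4me3 were both found at 42 members (72.4%), a class that held 6.44% of all genes. They were Pax2, Pax5, Pax6, Pax8, Pax9, Lhx1, Lhx2, Lhx4, Lhx6, Lhx8, Lhx9, Nkx2-2, Nkx6-1, Dlx1 to Dlx6, Tbx1, Tbx2, Tbx4, Tbx5, Tbx18, Gata2 to Gata6, Neurod2, Neurog2, Sim1, Sim2, Foxa2, Foxc1, Foxc2, Foxd3, Otx1, Six2, Six3, Sox2 and En2. In 41 of them (70.7% of members, against 6.26% of all genes) both marks were found in the same mouse, and the exception was Pax5, with H3K4me3 in mouse 2 and H3K27me3 in mice 5 and 11. H3K27me3 without H3K4me3 was found at 11 members (19%), against 1.59% of all genes: Pax1, Lhx3, Lhx5, Nkx2-1, Nkx2-5, Tbx20, Neurod1, Neurog1, Otx2, Wt1 and Tcf21. H3K4me3 without H3K27me3 was found at Tbx3, Tbx15 and En1 (3 members or 5.17%, against 59.3% of all genes). Neurog3, which drives endocrine cells of the pancreas, and Sox1, a factor of neural progenitors, had no peak of either mark (3.45% of members, against 32.7% of all genes).

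**Figure D1:**
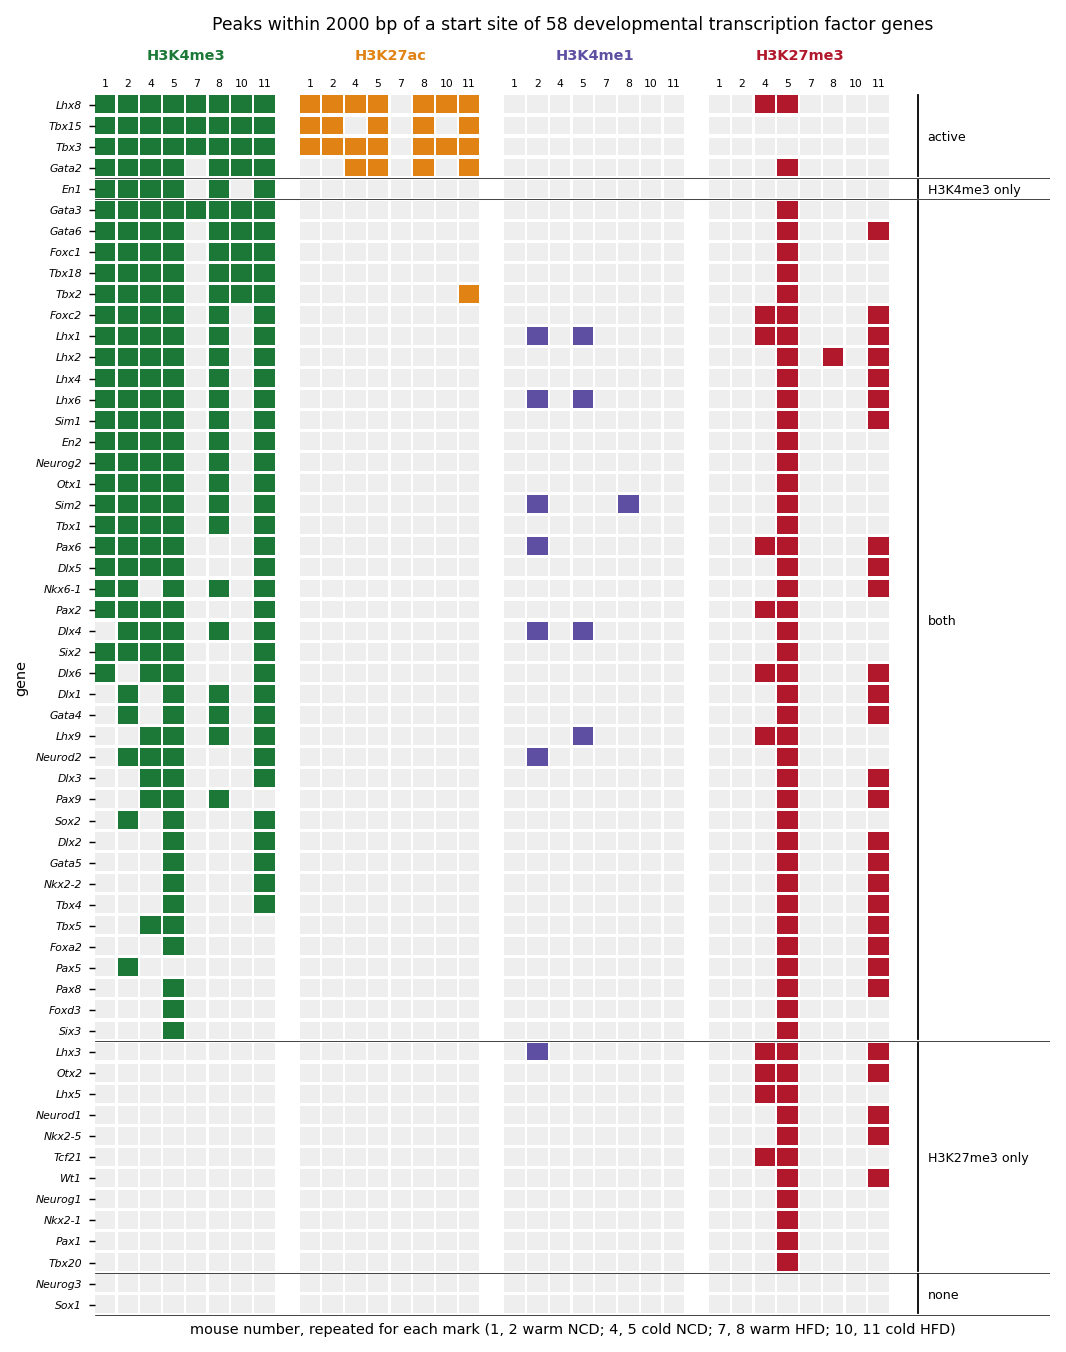
Peaks within 2000 bp of a start site of the 58 genes (rows) in each mouse (columns 1 to 11, repeated for the 4 marks), where a coloured cell is a peak and a grey cell none. The 4 active genes are at the top, H3K27me3 fills the column of mouse 5 at 53 genes, and mice 1, 2, 7 and 10 have none.

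Most H3K27me3 calls came from mouse 5. H3K27me3 was called at 53, 28, 11 and 1 members in mice 5, 11, 4 and 8, and at 0 in mice 1, 2, 7 and 10. These counts moved with list length, which was 6428 peaks in mouse 5, 1392 in mouse 11, 309 in mouse 4 and 20 to 165 in the others. Of all genes, 7.67%, 2.03%, 0.355% and 0.105% were marked in mice 5, 11, 4 and 8, and 0.00911%, 0.0364%, 0.0592% and 0.0683% in mice 1, 2, 7 and 10. The peaks at members made up 2.54% of the list of mouse 5, 3.74% of that of mouse 11, 4.21% of that of mouse 4 and 0.606% of that of mouse 8, and 0% of the 4 other lists, which held 20 to 133 peaks. Without mouse 5, 33 members (56.9%) still had H3K27me3, against 2.22% of all genes, and 24 members were left with both marks. Without mice 5 and 11, 12 members (20.7%) had it, against 0.483% of all genes, and 8 had both marks. The reads behind each library were not recovered here, so absence of a peak in a short list means only that none was called in that list.

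Every member with H3K27me3 in another mouse also had it in mouse 5. H3K27me3 was called only in mouse 5 at 20 members, in mice 5 and 11 at 21, in mice 4 and 5 at 5 (Pax2, Lhx5, Lhx8, Lhx9 and Tcf21) and in mice 4, 5 and 11 at 6 (Pax6, Lhx1, Lhx3, Dlx6, Foxc2 and Otx2). Lhx2 had it in mice 5, 8 and 11. In all, 33 members (56.9%) had H3K27me3 in 2 or more mice, against 1.93% of all genes. Every Lhx gene was among those 33, but 2 of 8 Tbx genes were, and neither Six2 nor Six3 was.

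H3K4me3 was found at more members than H3K27me3 in every mouse but mouse 5. It was called at 27, 32, 32 and 44 members in mice 1, 2, 4 and 5, or 46.6%, 55.2%, 55.2% and 75.9%, against 60.8%, 61.8%, 62.2% and 64.2% of all genes. On HFD it was called at 4, 27, 9 and 38 members in mice 7, 8, 10 and 11, or 6.9%, 46.6%, 15.5% and 65.5%, against 44.3%, 59.4%, 55% and 62.6% of all genes. The share of members was above that of all genes in mice 5 and 11 and below it in the other 6. H3K27ac was called at 3, 3, 3, 4, 0, 4, 2 and 5 members in mice 1, 2, 4, 5, 7, 8, 10 and 11, against 34.5%, 45.2%, 33.9%, 45.2%, 4.35%, 40.7%, 20% and 45.8% of all genes.

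**Figure D2:**
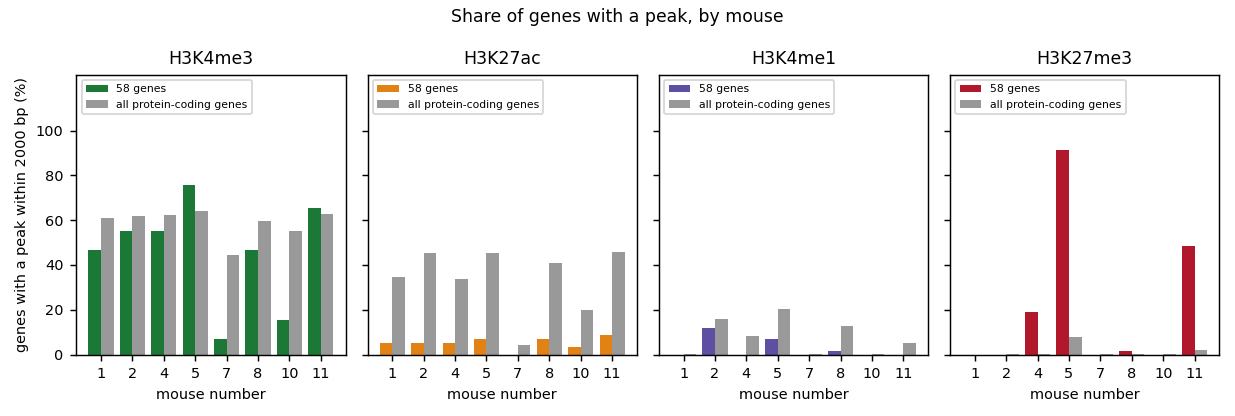
Percentage of genes with a peak within 2000 bp of a start site in each mouse, for the 58 genes (coloured bars) and all protein-coding genes (grey bars), by mark. H3K27me3 is at 91.4% of the 58 genes and 7.67% of all genes in mouse 5, and H3K27ac is lower at the 58 genes in every mouse.

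A member was called active when H3K4me3 and H3K27ac were found in the same mouse in at least 4 of the 8 mice. Lhx8, Tbx3, Tbx15 and Gata2 met this rule (4 members or 6.9%, against 40.3% of all genes). Lhx8 and Tbx3 had both in 7 mice, Tbx15 in 5 and Gata2 in 4. Of the 45 members with H3K4me3, 5 (11.1%) ever had H3K27ac, against 75.7% of the 14426 genes with H3K4me3. Of the 21 members with H3K4me3 in 6 or more mice the share was 23.8%, against 83% of 12845 genes. The fifth member with H3K27ac was Tbx2, in mouse 11 alone.

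Lhx8 (ENSMUSG00000096225.7, chromosome 3, 154306294 to 154330659, minus strand) is a LIM homeobox gene known from forebrain cholinergic neurons and used as a marker of brown fat. Its H3K4me3 fold, the authors' ratio of ChIP signal to local background, was 12.9 and 12.8 in mice 1 and 2, 16.8 and 38.3 in mice 4 and 5, 3.4 and 8.22 in mice 7 and 8, and 8.63 and 11.6 in mice 10 and 11. Its H3K27ac fold was 4.87, 7.71, 7.68, 12.2, 8.2, 5.09 and 7.9 in mice 1, 2, 4, 5, 8, 10 and 11. Mouse 7 had no H3K27ac peak there, and no member had one in that list. Lhx8 was also the one active gene with H3K27me3 in 2 mice, with a fold of 5.12 in mouse 4 and 7.29 in mouse 5, over 221 and 561 bp. In mouse 5 all of those 561 bp lay within the H3K4me3 peaks, which spanned 3495 bp. The start of AI606473, a processed transcript on the other strand, lies 162 bp from a start of Lhx8, so the marks cannot be assigned to either gene.

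Tbx3 (ENSMUSG00000018604.18, chromosome 5, 119670669 to 119684724, plus strand) is a T-box repressor of limb and mammary development. Its H3K4me3 fold was 16.7 and 18.3 in mice 1 and 2, 5.4 and 52.6 in mice 4 and 5, 5.03 and 3.61 in mice 7 and 8, and 10.5 and 21.3 in mice 10 and 11. The mice of each temperature and of each diet overlapped. H3K27ac was present in the same 7 mice as at Lhx8, with a fold of 3.68 in mouse 10 to 11.2 in mouse 11. No H3K27me3 peak touched its window. The nearest lay upstream, 6260 and 9263 bp away in mouse 5, 7072 bp in mouse 11 and 9306 bp in mouse 4.

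Tbx15 (ENSMUSG00000027868.11, chromosome 3, 99240381 to 99354259, plus strand) is a T-box gene of skeletal muscle and adipose depots that is high in brown fat. Its H3K4me3 fold was 19.7 and 25 in mice 1 and 2, 17 and 60.7 in mice 4 and 5, 3.7 and 11.6 in mice 7 and 8, and 8.89 and 19.9 in mice 10 and 11. H3K27ac was weaker, with a fold of 5.26, 5.03, 5.43, 3.78 and 3.57 in mice 1, 2, 5, 8 and 11. Counted from the weakest peak of each list, their percentile rank was 13.6 to 34, whereas that of the Lhx8 peaks was 23.7 to 85.1. Its single start in the basic annotation is at 99253760, and the nearest H3K27me3 peak was 2935 bp upstream of it, in mouse 5. Another H3K27me3 peak of that mouse came within 2000 bp of the transcript that begins at 99240381, outside the basic set, and with every annotated start Tbx15 had both marks.

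Gata2 (ENSMUSG00000015053.14, chromosome 6, 88193891 to 88207032, plus strand) is a zinc finger factor of blood progenitors, endothelium and preadipocytes. Its H3K4me3 fold was 9.46 and 12.2 in mice 1 and 2, 11 and 32.5 in mice 4 and 5, 5.73 in mouse 8, and 4.68 and 8.75 in mice 10 and 11, with no peak in mouse 7. H3K27ac had a fold of 2.53, 4.88, 2.87 and 7.89 in mice 4, 5, 8 and 11. The percentile ranks of these peaks in their lists were 2.58, 18.6, 4.54 and 77.7. Gata2 has 2 starts in the annotation, and the downstream promoter printed above is that of the nearby RefSeq start at 88198664. Within 500 bp of the upstream start at 88193891, H3K4me3 was found in 4 mice (1, 2, 5 and 11) and H3K27ac in 0. At the downstream start at 88198334, H3K4me3 was found in 7 mice and H3K27ac in mice 5 and 11. H3K27me3 was found at both starts in mouse 5 and covered 4889 bp in all, of which 59.7% lay within H3K4me3 peaks. The active call of Gata2 was lost without mouse 4, 5, 8 or 11, and also with windows of 1000 bp. Each of these left 3 active members. With a −log10 q of at least 5 the active members were Lhx8 and Tbx3.

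**Figure D3:**
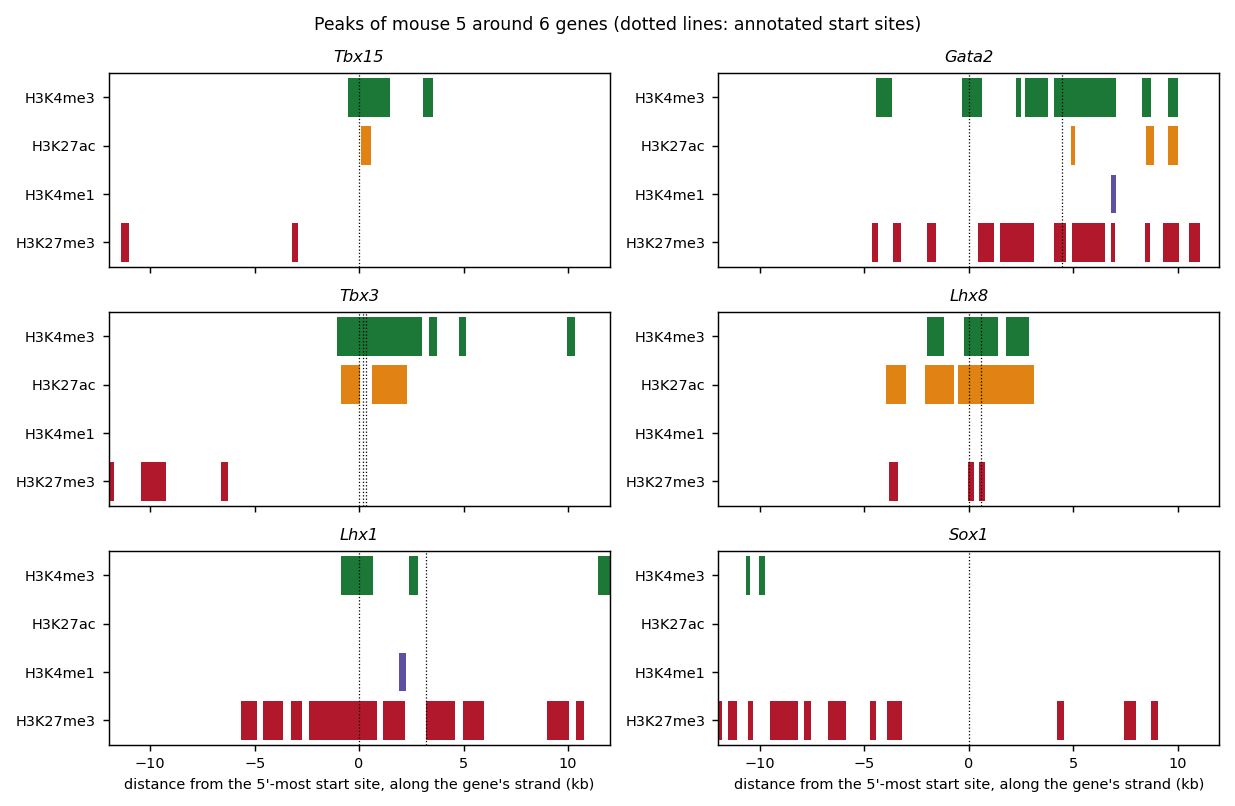
Peaks of mouse 5 from 12 kb before to 12 kb after the 5′-most start of 6 genes, in kb along the gene's strand, with a row for each mark and a dotted line at each annotated start. Tbx3 and Tbx15 have H3K27me3 only upstream of their H3K4me3, and Gata2 and Lhx1 have both marks over 1 of their 2 starts. Sox1 has H3K27me3 peaks on both sides of a start where no peak was called.

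En1, which patterns the midbrain and limb, was the member with H3K4me3 alone that was not active. Its H3K4me3 fold was 12.1, 14.6, 6.25, 33.7, 5.97 and 9.16 in mice 1, 2, 4, 5, 8 and 11, and it had no H3K27ac in any mouse. H3K27me3 peaks lay outside its window in mouse 5, 4439 bp downstream and 9090 bp upstream. Sox1 was flanked in the same way, by 8 H3K27me3 peaks in mouse 5 at 3190 to 8727 bp on both sides and by 1 in mouse 11 at 4962 bp. Neurog3 had no H3K27me3 peak within 10000 bp in any mouse. With windows of 5000 bp, Neurog3 was the member with neither mark and Tbx3 the member with H3K4me3 alone.

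Among members with both marks, Lhx1, Lhx2, Foxc2, Pax6 and Dlx6 had H3K27me3 in the most mice, 3 each. Lhx1, required for head and kidney formation, had an H3K27me3 fold of 5.02 in mouse 4, 7.63 in mouse 5 and 5.76 in mouse 11. Its H3K4me3 fold was 9.66, 9.4, 5.68, 19.4, 3.78 and 11.3 in mice 1, 2, 4, 5, 8 and 11. In mouse 5 the central H3K27me3 peak ran from -2379 to 857 bp around the 5′-most start and the H3K4me3 peak from -857 to 680 bp, so that this H3K4me3 peak lay wholly inside it. Pax6, the eye and pancreas regulator, had 6.08, 7.63 and 6.08 for H3K27me3 in mice 4, 5 and 11, and 4.63, 4.21, 8.2, 10.1 and 7.56 for H3K4me3 in mice 1, 2, 4, 5 and 11. Its 8 annotated starts fall into 3 groups, and H3K4me3 came within 500 bp of the third alone, whereas H3K27me3 came that close to all 3 in mouse 5.

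Lhx2, a forebrain, eye and hair follicle regulator, was the sole member with H3K27me3 in a warm mouse. Its H3K27me3 fold was 7.29 in mouse 5, 4.08 in mouse 8 and 5.76 in mouse 11, and its H3K4me3 fold 4.13, 4.82, 6.05, 17.5, 4.76 and 7.9 in mice 1, 2, 4, 5, 8 and 11. Foxc2, a forkhead gene of mesoderm and lymphatic vessels, had H3K27me3 of 4.83, 6.95 and 4.99 in mice 4, 5 and 11 and H3K4me3 of 13.3, 10.3, 5.16, 32.5, 9.13 and 10.3 in the same 6 mice as Lhx1. Dlx6, a distal-less gene of limbs and jaw, had H3K27me3 of 4.96, 5.92 and 4.61 in mice 4, 5 and 11 and H3K4me3 of 4.02, 8.45, 11.7 and 3.66 in mice 1, 4, 5 and 11. For each of these 5 genes the highest fold of either mark was in mouse 5, but these folds are not scaled between lists. By percentile in its list, H3K4me3 was higher in mouse 11 than in mouse 5 at Lhx1 (49.1 against 43.2) and Pax6 (38.7 against 30.1). At Dlx6 it was higher in mouse 4 (35.7 against 33.2). At Lhx2 and Foxc2 it was still highest in mouse 5.

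The next genes by the same order had H3K27me3 in 2 mice. Gata6, a factor of heart and gut, had H3K27me3 of 7.63 and 4.04 in mice 5 and 11, beside H3K4me3 of 13.5, 12.5, 21.4, 30.7, 5.62, 7.43 and 14.4 in every mouse but 7. Lhx4, of the pituitary and motor neurons, had 8.84 and 4.22 in mice 5 and 11, and its H3K4me3 was 4.43, 4.22, 2.51, 16.7, 4.77 and 6.87 in mice 1, 2, 4, 5, 8 and 11. Lhx6, of cortical interneurons, had 6.95 and 5.37, and its H3K4me3 was 6.64, 7.57, 5.79, 19, 5.84 and 9.62 in those 6 mice. All 3 had H3K4me3 in more mice than H3K27me3. Sim1, of the hypothalamus, had 6.95 and 4.99 in mice 5 and 11, beside H3K4me3 of 7.45, 5.74, 3.06, 13.6, 6.31 and 5.55. Pax2, a kidney gene, had 5.47 and 6.61 in mice 4 and 5, and H3K4me3 of 4.22, 5.13, 3.18, 11.7 and 3.1 in mice 1, 2, 4, 5 and 11. Nkx6-1, of beta cells and motor neurons, had 10 and 4.61 in mice 5 and 11, and H3K4me3 of 5.03, 5.13, 12.1, 4.33 and 5.15 in mice 1, 2, 5, 8 and 11. Dlx5 tied with the last pair and was left out by list order.

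Gata3, a T cell and inner ear factor, stood apart among members with both marks, as H3K4me3 was found in all 8 mice and H3K27ac in 0. H3K4me3 in every mouse was otherwise found at Lhx8, Tbx3 and Tbx15 alone (4 members or 6.9%, against 44% of all genes). Its H3K4me3 fold was 24.8, 17.7, 28.9, 12.5, 7.34, 8.71, 10.6 and 22.8 in mice 1, 2, 4, 5, 7, 8, 10 and 11. It had H3K27me3 in mouse 5 alone, as 2 peaks with a highest fold of 5.58 and a total width of 1061 bp. Foxc1, Tbx18, Tbx2, Gata6 and Gata2 had H3K4me3 in 7 mice, all but mouse 7. Gata3, Foxc1, Tbx18 and Tbx2 were picked out here after their values were seen.

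Of the 11 members with H3K27me3 alone, Lhx3 and Otx2 had it in 3 mice. Lhx3, of the pituitary and motor neurons, had a fold of 4.44, 8.31 and 7.29 in mice 4, 5 and 11, and that of mouse 11 was at the 99.4th percentile of its list. Otx2, of forebrain and eye, had 6.1, 7.63 and 4.99 in the same mice. Lhx5 had 4.7 and 7.63 in mice 4 and 5, Nkx2-5 had 6.95 and 4.62 in mice 5 and 11, and Neurod1 had 4.56 and 4.61 in mice 5 and 11. Lhx5 acts in the forebrain, Nkx2-5 in the heart, and Neurod1 in neurons and pancreatic islets. Wt1 and Tcf21, which are known from mesothelium, kidney and visceral fat progenitors, also had H3K27me3 in 2 mice and H3K4me3 in 0, and were picked out here after their values were seen.

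By family, all 8 Lhx, 6 Pax, 6 Dlx, 5 Gata, 4 Nkx and 4 Fox genes had H3K27me3 in at least 1 mouse. So did 6 of 8 Tbx genes and 4 of 5 Neurod and Neurog genes. H3K4me3 was found at all 6 Dlx and all 5 Gata genes, and at 2 of 5 Neurod and Neurog genes. The median number of mice with H3K4me3 was 7 for Gata, 6.5 for Tbx and 6 for Lhx genes, against 2 for Pax, 1 for Nkx and 0 for Neurod and Neurog genes. Over the 58 genes it was 4, and over all genes 7. Another 47 genes of the same families, listed alongside, had H3K27me3 at 29 (61.7%).

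H3K4me3 at the members ranked low within its own lists. Each gene was given the percentile of its highest H3K4me3 fold among all peaks of that mouse. For members with H3K27me3 that were not active, the median percentile was 19.9, 20.3, 14.9, 34, 26.8, 12 and 35 in mice 1, 2, 4, 5, 8, 10 and 11. In mouse 7 Gata3 was the sole such gene, at 76.6. For all genes with a peak the medians ran from 59.9 in mouse 7 to 74 in mouse 11. The active members lay between these medians in 7 mice, at 46.4, 49.1, 55.8, 59.2, 37.5, 55.8 and 56.3 in mice 1, 2, 4, 5, 8, 10 and 11. In mouse 7 they were below both, at 20.4. Their medians were below that of all genes in 8 of 8 mice, as were those of the H3K27me3 members in 7 of 8.

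**Figure D4:**
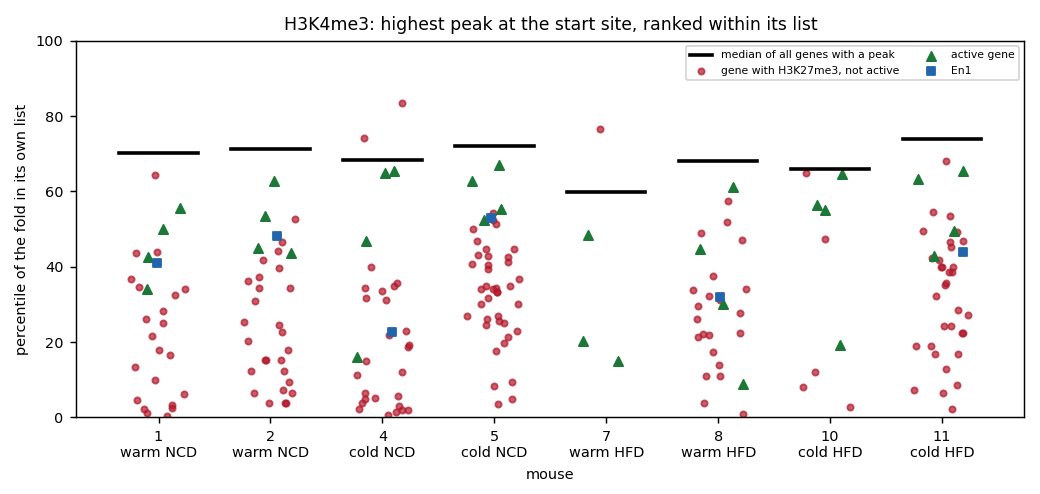
Percentile of the highest H3K4me3 fold at each of the 58 genes within the list of its mouse (y axis, 0 to 100), by mouse. Red points are genes with H3K27me3 that were not active, green triangles active genes, the blue square En1, and the black bar the median of all genes with a peak (59.9 to 74), below which most points lie.

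By width, the active members were above all genes with an H3K4me3 peak in 7 of 8 mice. The active members were picked by a rule on H3K4me3 and H3K27ac. Their width was not compared with that of other genes that met the rule. The H3K4me3 peaks at an active member added up to a median of 3966, 4152, 2954, 3784, 3240, 1861 and 4810 bp in mice 1, 2, 4, 5, 8, 10 and 11, against 1657, 1660, 1299, 1427, 1551, 1359 and 1823 bp for all genes. In mouse 7 it was 932 bp against 948 bp. For members with H3K27me3 that were not active it was 620 to 914 bp in every mouse but mouse 5, where it was 1448 bp. Widths add up over all starts of a gene, of which Gata2 and Lhx8 have 2 each, Tbx3 has 3 and Tbx15 has 1.

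H3K27me3 at the members was wide and high in the longest list. In mouse 5 the median percentile of the fold was 86.2 at 53 members and 62.7 at the 1683 genes with H3K27me3, and the median total width was 1783 bp against 671 bp. Pax6 ranked 3rd of those genes by width with 7369 bp, Lhx1 5th with 6695 bp, Lhx2 7th with 6363 bp, Lhx9 8th with 5983 bp and Tbx4 11th with 5287 bp. In all, 20 members were among the top 100. These widths too add up over all starts of a gene, and were not adjusted for their number. Pax6 has 8 starts, Lhx9 5, Tbx4 3, and Lhx1 and Lhx2 2 each. The lowest widths were 372 bp at Six3, 422 bp at Sim2 and 561 bp at Lhx8. In mouse 11 the members were wider than all marked genes (502 bp against 328 bp) but no higher (49.9th against 50.7th percentile), and in mouse 4 they were neither (313 bp against 318 bp, and 32.8th against 39.1st).

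Where both marks were called in mouse 5, the peaks overlapped by at least 1 bp at 33 of 41 members (80.5%), against 910 of 1317 genes (69.1%). Where peaks overlapped, the median overlap was 687 bp at members and 326 bp at all genes. H3K27me3 was also wider at members with both marks, with a median of 2117 bp against 698 bp. The median share of H3K27me3 width inside H3K4me3 was 19.9% at members and 22.5% at all genes with both marks. The median share of H3K4me3 width inside H3K27me3 was 34.3% against 15.7%. All of the H3K4me3 width lay inside H3K27me3 at Lhx9, Pax8 and Gata4. The peaks stood apart at Sox2, En2, Dlx5, Otx1, Tbx2, Sim2, Six3 and Pax2, by 27 bp at Tbx2 to 2451 bp at Six3. In mouse 11 the peaks overlapped at 11 of 18 members (61.1%) against 39.8% of genes, and in mouse 4 at 2 of 7 (28.6%) against 26.8%. H3K27ac was found at 2 of the 41 members in mouse 5, Lhx8 and Gata2 (4.88%), against 12% of genes with both marks. Overlapping peaks do not show that both marks were on the same molecule or in the same cell.

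Around the 5′-most start, the marks were laid out differently. In mouse 5, H3K4me3 at the 40 members with both marks that were not active covered at most 67.5% of genes, at 100 bp after the start, and had dropped to 10% by 1 kb before it. H3K27me3 covered 25% of them at the start itself, at most 47.5%, at 550 bp after it, and still 40% at 5 kb after it. At the 11 members with H3K27me3 alone, it covered 27.3% at the start and at most 63.6%, at -750 bp. The lists hold narrow peaks, and H3K27me3 at a gene could be called as many, 9 at Pax6 and 8 at Pax9 in mouse 5. Whether the gaps between such peaks lack the mark was not tested. Over all genes H3K27me3 never exceeded 2.49%, and H3K4me3 reached 58.1%. The members shown here were sorted by peaks within 2000 bp, those of mouse 5 included. Their height near the start against all genes follows in part from that sorting, and is not a separate result.

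**Figure D5:**
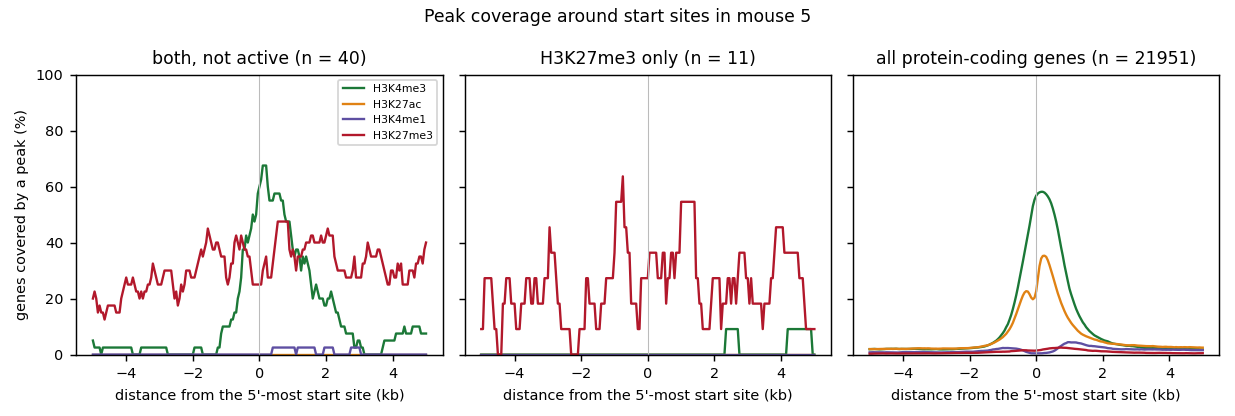
Percentage of genes covered by a peak of each mark (y axis) from 5 kb before to 5 kb after the 5′-most start (x axis), in mouse 5, for members with both marks that were not active (n = 40), members with H3K27me3 alone (n = 11) and all protein-coding genes (n = 21951). H3K4me3 peaks sharply near the start at members with both marks, reaching 67.5%, while H3K27me3 lies between 12.5% and 47.5% across the whole window. Members were sorted by peaks within 2000 bp, so their height near the start follows in part from the sorting.

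The sequence under the peaks differed along with the mark. In mouse 5, the median ratio of observed to expected CpG was 0.536 in the 163 H3K27me3 peaks at members, 0.434 in 2452 peaks at other protein-coding starts and 0.296 in 3798 peaks away from starts. In H3K4me3 peaks it was 0.746 at members (62 peaks) and 0.681 at other starts, and 91.9% of those at members were above 0.6 against 67.4%. Mouse 11 gave 0.507, 0.484 and 0.331 for H3K27me3 and 0.772 against 0.636 for H3K4me3. Peaks of the same gene are neighbours, so these are descriptions. At 22 members the start of a noncoding gene also lay within 2000 bp of a start, and at 0 that of another member. The share over all genes was not counted, so nothing particular to the members is read from this.

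H3K4me1 was found at Pax6, Lhx1, Lhx3, Lhx6, Lhx9, Dlx4, Neurod2 and Sim2, in 1 or 2 mice each. It was called at 7 members in mouse 2, 4 in mouse 5 and 1 in mouse 8, against 15.7%, 20.1% and 12.6% of all genes. No member had it in mice 1, 4, 7, 10 and 11, where 0.2%, 8.28%, 0.0592%, 0.0683% and 5.18% of all genes did. None of the 8 was active. The H3K4me1 lists of mice 7 and 10 held 12 and 18 peaks.

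No member had a peak that split cold from warm mice, or HFD from NCD mice, completely. A gene had to have a peak in all 4 mice of a group and in none of the other 4, which has a Fisher's exact p of 0.0286 and an adjusted p of 1 over 21951 genes. By temperature, 7 genes did so for H3K4me3 (0.0273% for cold and 0.00456% for warm), 7 for H3K27ac (0.0319%, all cold) and 0 for H3K4me1 and H3K27me3. By diet, 42 did so for H3K4me3 (0.0592% for HFD and 0.132% for NCD), 13 for H3K27ac (0.0592%), 7 for H3K4me1 (0.0319%) and 12 for H3K27me3 (0.0547%). The count of members was 0 in each case. No smaller p is possible with 4 against 4 mice, so after adjustment the test could not pass any gene with so few splits.

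Some members came within 1 mouse of this. H3K27me3 at Pax6, Lhx1, Lhx3, Dlx6, Foxc2 and Otx2 was found in 3 of 4 cold mice and 0 of 4 warm mice (Fisher's exact p = 0.143 for each, two-sided). With at most 1 exception, 0.178% of all genes were split by temperature for H3K27me3, counting either direction. The cold mouse without H3K27me3 at these 6 members was mouse 10, and without that mouse all 6 were split by temperature. The 3 mice with it also had the longest H3K27me3 lists, 309 to 6428 peaks against 20 to 165, and the part of list length in this was not tested. H3K4me3 at Pax2, Pax6, Dlx5 and Six2 was found in 4 of 4 NCD mice and 1 of 4 HFD mice, always mouse 11. With at most 1 exception, diet split 1.56% of all genes for H3K4me3 in either direction. H3K4me3 at Dlx3 was found in 3 of 4 cold mice and 0 of 4 warm mice (temperature split 0.556% of all genes, counted in the same way). Fisher's exact p was 0.143 for each of these 5 genes as well. Mice 7 and 10, both HFD, had the shortest H3K4me3 lists (13517 and 17195 peaks against 19079 to 24104), with 4 and 9 members marked against 27 to 44.

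The H3K4me3 fold was also compared by size, for the 9659 genes with a peak in all 8 mice, by limma on quantile-normalised log2 fold with temperature and diet in the model. No gene passed for temperature or diet (0 of 9659, or 0%), and 522 and 542 had an unadjusted p below 0.05. Members could be tested at Gata3, Tbx15, Lhx8 and Tbx3. Normalised log2 fold at Lhx8 was 3.09, 3, 3.7 and 3.55 in warm mice and 4.17, 3.51, 4.15 and 2.82 in cold mice, and the groups overlapped. The cold minus warm difference was 0.33 ± 0.45 (SE) for Lhx8, 0.23 ± 0.50 for Tbx3, 0.14 ± 0.35 for Tbx15 and -0.05 ± 0.42 for Gata3 (limma, adjusted p of 0.953, 0.966, 0.969 and 0.987). The HFD minus NCD difference was 0.49 ± 0.42 for Gata3, 0.41 ± 0.50 for Tbx3, 0.11 ± 0.45 for Lhx8 and 0.02 ± 0.35 for Tbx15 (limma, adjusted p of 0.907, 0.938, 0.984 and 0.997). With standard errors of 0.35 to 0.50 on the log2 scale, changes of this size were not detectable with 4 mice against 4.

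The tissue was checked against markers. All 10 brown adipocyte genes were active, and 0 had H3K27me3. Ucp1, Cidea and Pparg had H3K4me3 and H3K27ac in 8 of 8 mice, Actb had them in 8 and 7, and Alb, a liver gene, had neither. Of other cell types, 8 of 8 endothelial genes were active, with Sox17 and Sox18 also carrying H3K27me3. Active genes numbered 0 of 8 for skeletal muscle, 0 of 8 for leukocytes, 0 of 3 for liver and 1 of 6 for mesothelium and fibroblasts (Dpt). H3K27me3 was found at 4, 0, 0 and 2 genes of these 4 lists. Gata2 is known in endothelium, and the part of endothelial cells in its marks was not tested. Of 25 genes for Polycomb proteins and H3K27 enzymes, 20 were active, Ezh1, Ezh2, Eed and Suz12 among them, and 3 had H3K27me3.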

How the data were processed

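H3K4me3, H3K27ac, H3K4me1 and H3K27me3 ChIP-seq of 8 mice gave 32 peak lists. The 8 inputs were used only as the authors' controls. According to the methods, the authors filtered reads with cutadapt, aligned them to GRCm38 with bowtie2 and called peaks with macs2 against the input of the same mouse. The sources used here give no versions, and deepTools is also named in the submitters' processing notes. The deposited columns used were the fold (ChIP pileup divided by the local background, a ratio) and the −log10 q of each peak, as the authors' caller gave them, with the −log10 p left aside. The deposited score of each peak, 10 times its −log10 q cut to a whole number by the authors' caller, was not used. The smallest −log10 q was 1.30. Reads per library are not in the lists. List length (12 to 40604 peaks) is given in their place, and how far it follows read depth was not tested.

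Peaks were joined to start sites of the GENCODE M21 basic annotation (window 2000 bp) with Python 3.11.15. Lists ended within all 22 chromosomes of GRCm38.p6. Temperature and diet were compared over 4 against 4 mice, by Fisher's exact test of presence and by limma 3.58.1 in R 4.3.3 on quantile-normalised log2 fold, both with Benjamini-Hochberg adjustment over all genes tested (threshold 0.05). The methods state that 2 mice were used in each sequencing experiment, not whether their tissue was pooled within a library, so p-values measure the spread between these lists. The limma step was tested on simulated data first. Values per mouse are given for active members, for 12 members with both marks (by number of mice with H3K27me3, then H3K4me3), for 5 members with H3K27me3 alone, for any member that passed a test (0 did) and for Ucp1, Cidea, Pparg, Actb and Alb. The members, lists, windows and rules were chosen with earlier results of these data known. Alternatives were windows of 1000 and 5000 bp, a −log10 q of at least 5, summits, all annotated starts, other minimum numbers of mice, other normalisations and leaving out mice. Some results on listed genes outside the 58 are not reported here.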

Additional observations from a re-analysis of the deposited data

Results flagged for a closer look

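The number of the 58 genes marked was compared between the mice of a group, together with the H3K4me3 fold of the 4 genes tested. A mouse at either end was singled out when its distance from the next mouse made up most of the range. Of 40 groups examined, 6 stood out. A chance rate of about 1 group in 20 would give 2, but that rate is for continuous values in separate groups. It does not hold for small whole counts or for groups that share mice, so 6 cannot be set against 2. Several of the 6 rest on the same mice or on differences of 1 gene.

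Mouse 11 had H3K27me3 at 28 members, against 0 to 1 in the other HFD mice (gap 0.964 of the range). Its H3K27me3 list held 1392 peaks, against 20 to 165 in the other HFD mice. Mouse 8 had H3K27me3 at 1 member, Lhx2, against 0 in the other warm mice.

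H3K4me1 was found at 7 members in mouse 2, while the other 3 warm mice had 0 to 1 (gap 0.857), and at 4 members in mouse 5, against 0 in the other cold mice. These lists were also the longest for that mark, with 21356 and 27568 peaks. In mouse 8, H3K4me1 was found at 1 member, Sim2, against 0 in the other HFD mice. H3K27ac was found at 4 members in mouse 5, against 3 in each of the other NCD mice.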

How the results depend on the processing

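The classes rested on few lists, and on mouse 5 most of all. Leaving out 1 mouse at a time gave 9 to 12 members with H3K27me3 alone, 24 to 42 with both marks, 3 to 17 with H3K4me3 alone, 2 to 8 with neither and 3 to 4 active. The 24 with both marks, 17 with H3K4me3 alone and 8 with neither came without mouse 5. With a peak required in 2 or more mice there were 23, 17 and 8 members with both marks, with H3K4me3 alone and with neither. The next alternatives were chosen after the data were seen: leaving out mice 5 and 11 gave 4 members with H3K27me3 alone, 8 with both, 29 with H3K4me3 alone, 17 with neither and 2 active, and leaving out mice 7 and 10 changed none of the 5 counts. Windows of 1000 bp gave 33 members with both marks, 8 with H3K4me3 alone and 3 active, as Gata2 was no longer called. Windows of 5000 bp gave 46 with both marks, 1 with H3K4me3 alone and 1 with neither. With a −log10 q of at least 5, 29 members had both marks, 8 had H3K27me3 alone, 13 had H3K4me3 alone and 8 had neither. At that threshold 2 were active, and 2 were active when 6 mice were required. The active call of Lhx8 and Tbx3 held under every one of these settings.

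For whole splits by temperature and diet, the count of members stayed at 0 with windows of 1000 bp and with a −log10 q of at least 5. With at most 1 exception, temperature split 122, 115, 33 and 39 genes by H3K4me3, H3K27ac, H3K4me1 and H3K27me3, and diet split 343, 179 and 361 by the first 3 marks, and 11 member calls were among them. With a −log10 q of at least 5, 4 genes were split by temperature for H3K4me3, 6 by diet for H3K27ac and 0 by diet for H3K4me1. Windows of 1000 bp gave 13 genes split by temperature for H3K27ac and 3 by diet for H3K4me1. Leaving out 1 mouse gave 7 to 104 and 42 to 284 genes split by temperature and diet for H3K4me3, 7 to 51 and 13 to 97 for H3K27ac, 0 to 33 and 7 to 344 for H3K4me1, and 0 to 39 and 12 to 14 for H3K27me3. Members appeared among them only without mouse 10 (7) and without mouse 11 (4). limma called 0 genes by temperature and by diet in all 12 alternatives for each, with 21 members tested when a peak in 6 mice was enough. The causes were not tested. No paired analysis was possible because the conditions compared share no mouse numbers, and the marks, which do share them, were not tested against each other.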
